A study of Mus musculus with 3 samples.

Results

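Recruited monocytes of brains carrying metastases are described here as the cells of deposited cluster 2 that came from a brain with metastases and were chosen by 2 conditions on their RNA. Each cell held fewer than 2 UMIs (unique molecular identifiers, 1 per captured RNA molecule) of the T cell genes Cd3d, Cd3e, Cd3g and Trac. Its summed UMIs of the monocyte genes Ly6c2, Plac8, Chil3, Thbs1 and F13a1 exceeded those of the macrophage genes C1qa, C1qb, C1qc, Ms4a7 and Apoe. The choice found 574 of 12421 cells, 327 in the brain called metastasis 1 and 247 in metastasis 2. Below, "monocytes" are these cells, and "macrophages" are the other cells of cluster 2 under the same T cell limit in the same brains, in which the monocyte sum did not exceed the macrophage sum (338 and 749 cells). Pairs of values give metastasis 1 first and metastasis 2 second.

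The study used CITE-seq, which reads RNA together with DNA tags on bound antibodies in each droplet, on brains of female C57BL/6 mice aged 2 to 3 months. One group was naive, without tumours, and the other carried brain metastases about 2 weeks after E0771 cells, a mouse mammary carcinoma line, were injected into the carotid artery; the labels give no transgene and no drug treatment for either group. Mice were perfused with PBS, brains were digested with papain, immune cells were enriched on a Percoll gradient, and each brain received 6 antibodies to surface antigens (CD45, CD11b, CD86, CD4, CD3e and CD25) plus its own hashing antibody before all were pooled. Of the 4 hashing antibodies in the files, 2 mark the naive group and 2 the group with metastases; the label names a brain hemisphere as the source, and no label ties these suspensions to separate mice or days, so any p-value measures only the spread between suspensions.

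Classical monocytes are made in the bone marrow, circulate with high surface Ly6C and leave the marrow and enter inflamed tissue through the chemokine receptor Ccr2. In tissue they lose monocyte genes such as Ly6c2 and Plac8 and gain genes of macrophages, among them those of complement C1q, Apoe and the lysosome, so that a continuum of states between both is common. The healthy brain parenchyma holds resident microglia, and monocytes are known to enter it around tumours, injury and infection. Monocytes answer type I and type II interferon strongly, with antiviral proteins and with chemokines such as Cxcl10 that attract T cells carrying Cxcr3.

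The monocytes were shallowly sequenced and no gap set them apart from the macrophages. They summed to 603045 and 331663 UMIs, with a median of 1398 and 1053 UMIs per cell, against 1521 and 1563 in the macrophages. The median share of mitochondrial UMIs was 1.63% and 1.79% in the monocytes and 1.38% and 1.26% in the macrophages; the part of depth in the ratios below was not tested. The monocytes were 45.5% of cluster 2 in metastasis 1 (95% exact binomial interval 41.9 to 49.3, counting error only) and 23.2% in metastasis 2 (20.7 to 25.9). The smaller share stood in the brain with more cells of cluster 2 in all, 1063 against 718. Just inside the rule, 118 cells had a monocyte sum 1 or 2 UMIs above the macrophage sum, and just outside, 144 cells had a tie or a deficit of 1 UMI, so many cells lay near the boundary. Just inside, Ccr2 was at 497 and 435 CPM and just outside at 469 and 568 CPM (UMIs per 1000000 UMIs of the summed cells). H2-Ab1, an MHC class II chain, was at 2419.5 and 2049.8 CPM just inside and 3872 and 4887 CPM just outside. The plot of marker UMIs per cell shows the boundary as a diagonal through one continuous cloud.

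**Figure D1:**
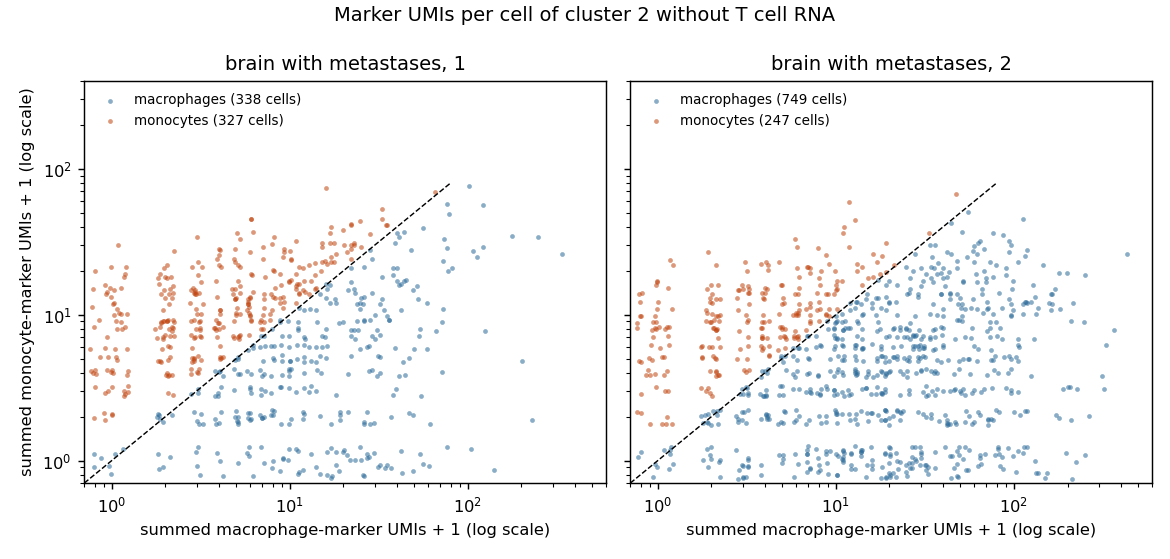
Each point is a cell of cluster 2 below the T cell limit, with the summed UMIs of the 5 macrophage genes on the x axis and of the 5 monocyte genes on the y axis, 1 added to both, on log scales, for each brain with metastases. The dashed line marks equal sums, with the 327 and 247 monocytes above it, and points are jittered slightly so that they can be told apart.

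The 5 monocyte genes of the rule had these levels by choice, and they are given as a description. Ly6c2, which encodes a chain of the Ly6C antigen, was at 965 and 1028 CPM in the monocytes and 445 and 453 CPM in the macrophages. Plac8, a small protein of circulating myeloid cells, was at 3661 and 3736 CPM in the monocytes and 1432 and 1033 CPM in the macrophages. Chil3, the chitinase-like protein Ym1 of monocytes and of alternatively activated macrophages, was at 1149 and 1547 CPM in the monocytes and 375 and 318 CPM in the macrophages. All of them were still measured in the macrophages, at lower levels. Thbs1, which encodes the matrix glycoprotein thrombospondin, was at 1439 and 1691 CPM in the monocytes, and F13a1, a chain of coagulation factor XIII, at 153 and 181 CPM. Among the macrophage genes of the rule, Apoe, the lipid carrier apolipoprotein E, was at 1632 and 2096 CPM in the monocytes and 5591 and 10474 CPM in the macrophages, and C1qb, a chain of complement C1q, at 349.9 and 208 CPM in the monocytes and 1952 and 2441 CPM in the macrophages. At a common depth of 1000 UMIs per cell, a UMI of Plac8 was found in 92.5% and 90.6% of the monocytes, of Ly6c2 in 53.9% and 46.4%, and of C1qb in 20.2% and 13%.

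The label was set beside a list of classical monocyte genes that the rule did not name; these vary together with the genes of the rule, so their levels describe the cells and are no independent check of the label, and whether the cells had entered from blood was not measured. Since the rule read RNA of the same cells, every ratio of monocytes over macrophages below is a description with no test. Ratios are log2 values with 10 CPM added to both sides, and a gene was compared where it reached 50 CPM in either group in both brains, which left 2669 genes. Where groups are said below to overlap or to lie apart, this describes the named gene alone. The share of all genes compared that separate in this way is not given, and nothing is read from it. Of the 12 genes of the classical monocyte list, all passed this filter, 10 were higher in the monocytes in both brains, against 30.8% of all genes compared, and 6 were higher by 1 log2 unit or more, against 0.674%; the rule used this contrast, and nothing is read from those counts. Their median log2 ratio was 1.00, against -0.04 over all genes compared.

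Ccr2, the receptor for the monocyte-attracting chemokine Ccl2, was at 663 and 552 CPM in the monocytes and 389 and 345 CPM in the macrophages, and the groups did not overlap. Hp, the haemoglobin scavenger haptoglobin, was at 388 and 461 CPM in the monocytes and 152 and 97.6 CPM in the macrophages, with log2 ratios of 1.30 and 2.13. Both were above the macrophage level in each brain. Fn1, the matrix protein fibronectin, was at 388 and 347 CPM in the monocytes and 161 and 142 CPM in the macrophages, and Vcan, the proteoglycan versican, at 139 and 181 CPM in the monocytes and 48.2 and 47.9 CPM in the macrophages. Gda, the purine enzyme guanine deaminase, was at 378 and 314 CPM in the monocytes and 141 and 123 CPM in the macrophages. Mgst1, a membrane glutathione transferase, was at 267 and 235 CPM in the monocytes and 116 and 66 CPM in the macrophages. Lyz2, which encodes the antibacterial enzyme lysozyme, was at 23298 and 17451 CPM in the monocytes and 14545 and 9649.7 CPM in the macrophages, with log2 ratios of 0.68 and 0.85. Ms4a4c, a membrane protein of the Ms4a family, had log2 ratios of 0.49 and 0.39, and Cd14, the co-receptor for bacterial endotoxin, of 0.43 and 0.36. The 2 members lower in both brains were Csf1r, the receptor for the macrophage growth factor Csf1, with -0.34 and -0.19, and Itgam, the CD11b chain, with -0.03 and -0.03.

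Genes of non-classical monocytes, which patrol vessel walls, were sparse. Of 10 genes on that list, 3 passed the filter and each was higher in the monocytes in both brains, as were 30.8% of all genes compared. Nr4a1, a nuclear receptor that patrolling monocytes need and that cell handling also induces, was at 347 and 259 CPM in the monocytes and 196 and 189 CPM in the macrophages. Itgal, the alpha chain of the integrin LFA-1, was at 109 and 69.3 CPM in the monocytes and 45.5 and 36.8 CPM in the macrophages. Pglyrp1, a peptidoglycan-binding granule protein, was at 119 and 51.3 CPM in the monocytes and 34.4 and 17.5 CPM in the macrophages. By contrast the list's surface marker Treml4 was at 23.2 and 33.2 CPM and Ace, an enzyme of the same subset, at 38.1 and 15.1 CPM in the monocytes, below the filter.

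Defining RNA of cell types other than macrophages and microglia was mostly low or at 0 in the monocytes, with 3 exceptions. The T cell list summed to 66.3 and 66.3 CPM, the B cell list to 69.6 and 96.5 CPM and the carcinoma epithelium list to 66.3 and 57.3 CPM. Krt19, Krt7, Epcam, Cldn4, Cldn3 and Pax5 were at 0 UMIs in both brains. The first exception was the NK cell list, of which Eomes was also at 0, while 3 of its 7 genes reached 50 CPM in both brains. Cd163 and Lyve1 of the tissue macrophage list were at 0 as well. That list still summed to 1091 and 1134 CPM, against 2100 and 2493 CPM in the macrophages, and 7 of its 12 genes reached 50 CPM in the monocytes of both brains. Dendritic cell genes summed to 206 and 157 CPM, NK cell genes to 289 and 323, endothelial genes to 58 and 81.4, mural genes to 18.2 and 9.05 and red blood cell genes to 6.63 and 6.03 CPM, against 211 and 217, 265 and 206, 70.3 and 69.5, 9.64 and 9.35 and 0 and 2.34 CPM in the macrophages. Of the monocytes, 32 and 19 held a UMI of Krt8, Krt18, Krt19, Krt7 or Epcam. The microglia list summed to 627 and 440.2 CPM, against 1371 and 787 CPM in the macrophages and 7586 and 4035 CPM in the microglia-like cells of cluster 12 (26 and 15 cells with fewer than 2 UMIs of S100a8 and S100a9); 3 of its 11 genes reached 50 CPM in the monocytes of both brains. The second exception was Ttr, the transthyretin of choroid plexus epithelium, at 2860.5 and 3175 CPM in the monocytes and 3964 and 2205 CPM in the macrophages and at 224006 and 144633 CPM in choroid plexus clusters 7 and 9. A single cell held 22.9% and 21.8% of the monocytes' Ttr UMIs, and the part of free RNA or of attached cells in this level was not tested. The third exception was granule RNA of neutrophils.

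Granule genes of neutrophils were among the highest ratios of monocytes over macrophages, and in metastasis 1 a few cells held most of their UMIs. S100a8, a chain of the calcium-binding alarmin calprotectin, was at 947 and 178 CPM in the monocytes and 119.9 and 31.6 CPM in the macrophages, and its partner S100a9 at 821 and 118 CPM in the monocytes and 114 and 32.1 CPM in the macrophages. Camp, the precursor of the antimicrobial peptide cathelicidin, was at 399.6 and 63.3 CPM in the monocytes and 59.2 and 1.75 CPM in the macrophages, and Ngp, a neutrophil granule protein, at 511 and 54.3 CPM in the monocytes and 57.9 and 2.92 CPM in the macrophages. The neutrophil list of 10 genes held 1746 UMIs in metastasis 1, of which 2 cells contributed 683 and 680, or 78.1%. In metastasis 2 it held 164 UMIs, of which 2 cells contributed 58 and 20, or 47.6%. Without the cells of either group that held 10 or more such UMIs (6 and 2 monocytes, 1 and 3 macrophages), the list summed to 136 and 261 CPM in the monocytes, from 2895 and 494 CPM, and to 116 and 95.5 CPM in the macrophages, from 448 and 124 CPM. That limit was chosen after the values were seen. S100a8 was then at 29.7 and 125 CPM with log2 ratios of 0.58 and 2.01, and S100a9 had ratios of -0.36 and 1.07, so that S100a9 changed direction in metastasis 1. Camp and Ngp had ratios of 0.23 and -0.16 and of -0.19 and 0.53, with 1.75 and 0 and 0 and 6.08 CPM left in the monocytes. The ratios of Camp and Ngp thus rested on those cells in both brains, while in metastasis 2 S100a8 and S100a9 stayed higher in the monocytes, from 2.18 and 1.60 with all cells.

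Slpi and Lcn2 encode secreted proteins of neutrophils and of inflamed epithelia, and of these only Slpi kept its ratio in both brains. Slpi, an inhibitor of neutrophil elastase, was at 758 and 979.9 CPM in the monocytes and 204 and 231 CPM in the macrophages and had log2 ratios of 1.84 and 2.04, and without the cells rich in neutrophil RNA of 1.88 and 2.05. A UMI of Slpi was found in 32% and 39.9% of monocytes at 1000 UMIs per cell, against 15.3% and 15.3% of macrophages and 0.417% and 2.38% of choroid plexus cells. Lcn2, the iron-siderophore trap lipocalin 2, was at 61.4 and 78.4 CPM in the monocytes and 6.89 and 12.9 CPM in the macrophages. Without the cells rich in neutrophil RNA, Lcn2 was at 15.7 and 76.0 CPM in the monocytes. Its log2 ratio then went from 2.08 to 1.01 in metastasis 1 and from 1.95 to 1.91 in metastasis 2. Ifitm6, a membrane protein of the interferon-induced transmembrane family expressed in marrow-derived phagocytes, was at 642 and 516 CPM in the monocytes and 251 and 136 CPM in the macrophages. Mcemp1, a membrane protein of mast cells and monocytes, was at 259 and 247 CPM in the monocytes and 106 and 77.7 CPM in the macrophages, and Dmkn, the secreted protein dermokine, at 179 and 109 CPM in the monocytes and 74.4 and 29.8 CPM in the macrophages. In the antimicrobial and granule list as a whole, with all cells kept, 15 of the 16 genes that passed of 23 were higher in the monocytes in both brains (30.8% of all genes compared). Only Cyba, a subunit of the phagocyte oxidase, was lower, with ratios of -0.16 and -0.14. The count was not taken again without the cells rich in neutrophil RNA. Without them, the ratios of S100a9 and Ngp were -0.36 and -0.19 in metastasis 1, and that of Camp was -0.16 in metastasis 2.

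**Figure D2:**
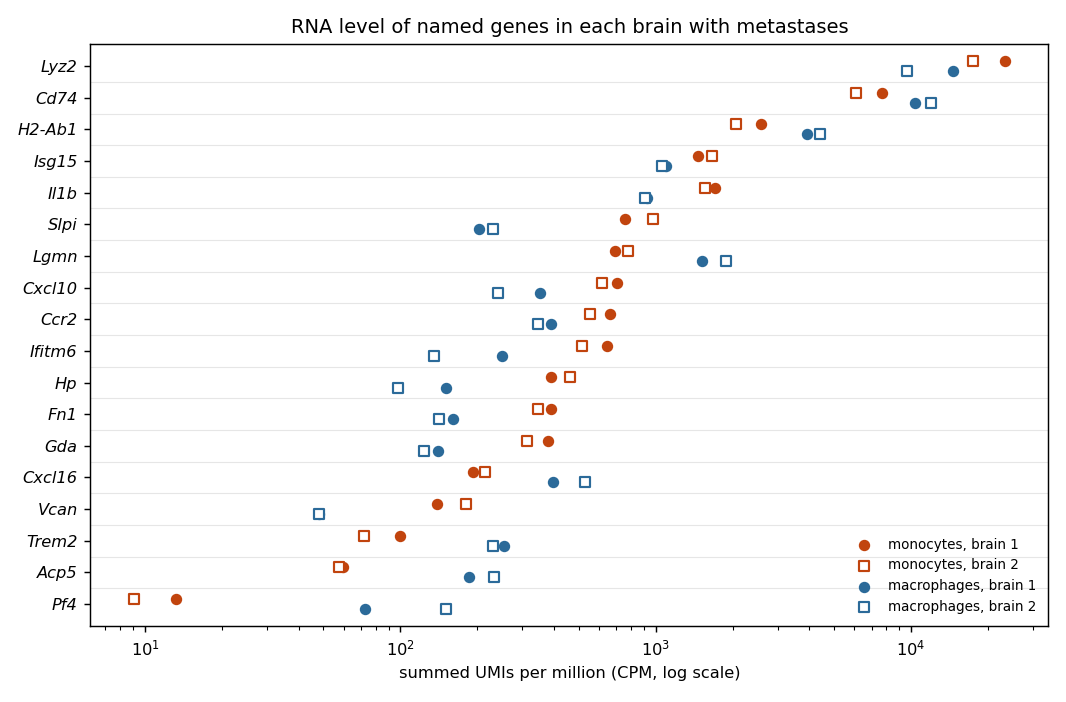
RNA level of 18 named genes in CPM on a log scale, in monocytes (red) and macrophages (blue) of metastasis 1 (filled circles) and metastasis 2 (open squares). In each gene both red points lie on one side of both blue points, with Hp, Fn1, Gda, Vcan and Slpi above and Lgmn, Trem2, Acp5, Pf4, Cxcl16, Cd74 and H2-Ab1 below. The genes drawn were picked, and genes whose groups overlapped, such as Irf7, Tnf, Cd274 and Fos, are not drawn. The share of all genes compared that separate in this way is not given, so nothing is read from the separation.

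All 33 genes of the type I interferon list reached 50 CPM in the monocytes of both brains. Of all 31053 genes counted, 2840 reached it in at least 1 of the 2 brains. The list was chosen with earlier results of these data known, so its full count describes the list and nothing is read from it. Summed over the list, the monocytes held 16327 ± 379 CPM (SD, n = 2 brains; 16058 and 16595 CPM), and the macrophages 11522 ± 219.9 CPM. Of the 33 genes, 30 were higher in the monocytes in both brains (30.8% of all genes compared), 1 was lower in both (38.6%) and 2 differed in direction; none was past 1 log2 unit in either brain, and the median log2 ratio was 0.53. The gene lower in both was Bst2, which encodes the virus tether tetherin, at 741 and 769 CPM in the monocytes and 880.4 and 923 CPM in the macrophages. Each list sum of the monocytes lay above each of the macrophages.

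Isg15, a ubiquitin-like protein, was at 1466 and 1667 CPM in the monocytes and 1099 and 1062 CPM in the macrophages. Ifitm3, a membrane protein that blocks virus entry, was at 6286 and 6109 CPM in the monocytes and 3804 and 3959 CPM in the macrophages, and a UMI of it was found in 99.6% and 97.8% of monocytes at 1000 UMIs. Ifit1, which binds foreign 5-prime RNA ends, was at 328 and 302 CPM in the monocytes and 171 and 169 CPM in the macrophages, with log2 ratios of 0.90 and 0.80. These effectors were higher in the monocytes in both brains. Rsad2, the antiviral enzyme viperin, was at 376 and 383 CPM in the monocytes and 318 and 213 CPM in the macrophages. Slfn5, a member of the schlafen family, was at 320 and 332 CPM in the monocytes and 185 and 179 CPM in the macrophages, and Zbp1, a sensor of Z-form nucleic acids, at 330 and 341 CPM in the monocytes and 194 and 257 CPM in the macrophages. The transcription factor Irf7, which drives the later wave of type I interferon, did not separate the groups, with 713 and 874 CPM in the monocytes and 656 and 892 CPM in the macrophages.

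Cxcl10, the Cxcr3 ligand named in the study's title, was at 703 and 618 CPM in the monocytes (424 and 205 UMIs; exact Poisson 95% intervals 638 to 773 and 536 to 709 CPM, counting error only). The macrophages held 353 and 241 CPM, cluster 0, in which the epithelial keratin gene Krt8 was at 432 and 656 CPM, held 2.18 and 2.12 CPM and the choroid plexus cells 8.06 and 2.51 CPM. The microglia-like cells of cluster 12 held 451 and 887 CPM, so that the monocytes were above them in metastasis 1 and below them in metastasis 2. Those were only 26 and 15 cells with 37699 and 32712 UMIs in all, and in metastasis 2 a single cell held 15782 of these UMIs. A UMI of Cxcl10 was found in 28.1% (95% exact binomial interval 22.3 to 34.4) and 27.5% (95% exact binomial interval 20.3 to 35.8) of monocytes at 1000 UMIs per cell, in 21.5% and 16.3% of macrophages and in 0.417% and 0.476% of choroid plexus cells. Median depth before thinning was 4382 and 5132 UMIs in the choroid plexus cells. Thinning left out 99 and 109 monocytes, and without thinning the share was 32.1% and 29.1%. Of the interferon gamma list of 17 genes, 8 passed the filter, 4 were higher in the monocytes in both brains (30.8% of all genes compared), none was lower in both (38.6%) and 4 differed in direction. Gbp2, a guanylate-binding protein, was at 121 and 133 CPM in the monocytes and 55.1 and 92.9 CPM in the macrophages. Cxcl9, another Cxcr3 ligand, was at 73 and 27.1 CPM in the monocytes and 46.8 and 70.1 CPM in the macrophages and the groups overlapped, and Nos2, inducible nitric oxide synthase, was at 0 UMIs.

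Promoters of the interferon genes are shown because the interferon-stimulated response element, bound by ISGF3 and IRF factors, recurs in them. The motif searched was GAAA, any 2 bases and GAAA again, on both strands (overlapping matches were counted), in the 250 bases before the annotated start. Of the 33 type I interferon genes, 26 matched a RefSeq promoter by symbol (build GRCm38.p6), and 15 of these (57.7%) held a match, against 3.46% of all 27025 symbols of the table and 5.05% of the 2118 genes compared above that matched. Of the interferon gamma list 9 of 13 matched genes held it, of the classical monocyte list 0 of 7, and of the MHC class II list 1 of 6. The sequences of Cxcl10, Isg15, Ifit1 and Rsad2 run 5′ to 3′ along the gene's strand and end at the base before the start, with matches in capitals.
Cxcl10, chr5:92348890-92349139, minus strand: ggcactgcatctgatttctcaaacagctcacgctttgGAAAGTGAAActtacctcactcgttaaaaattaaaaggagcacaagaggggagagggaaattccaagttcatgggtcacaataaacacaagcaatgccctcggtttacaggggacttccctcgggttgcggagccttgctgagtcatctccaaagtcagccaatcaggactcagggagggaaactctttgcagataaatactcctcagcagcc
Isg15, chr4:156200819-156201068, minus strand: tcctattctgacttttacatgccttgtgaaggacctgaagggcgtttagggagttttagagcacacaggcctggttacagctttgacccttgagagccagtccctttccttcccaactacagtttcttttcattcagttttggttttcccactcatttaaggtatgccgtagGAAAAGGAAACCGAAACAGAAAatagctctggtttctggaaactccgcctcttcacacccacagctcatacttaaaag
Ifit1, chr19:34640639-34640888, plus strand: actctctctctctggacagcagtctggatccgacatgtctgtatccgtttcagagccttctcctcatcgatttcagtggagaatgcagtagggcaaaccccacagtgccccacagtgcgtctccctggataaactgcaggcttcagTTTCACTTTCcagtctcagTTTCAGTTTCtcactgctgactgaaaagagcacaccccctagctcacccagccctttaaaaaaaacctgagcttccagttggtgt
Rsad2, chr12:26456453-26456702, minus strand: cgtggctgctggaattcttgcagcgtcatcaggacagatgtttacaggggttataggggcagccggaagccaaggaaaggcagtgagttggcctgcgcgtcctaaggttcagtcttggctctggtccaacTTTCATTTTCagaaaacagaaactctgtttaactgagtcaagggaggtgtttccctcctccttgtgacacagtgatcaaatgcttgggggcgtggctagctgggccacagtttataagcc
The match of Cxcl10 begins 213 bases before the start and that of Rsad2 120 bases. In Isg15 the 3 matches overlap in 1 run, and in Ifit1 the 2 matches lie apart. A match describes these letters and no binding was measured.

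Within a brain, the interferon genes were found together in the same monocytes. Cells of at least 1000 UMIs (228 and 138) were thinned to 1000 UMIs and split at the median of the summed UMIs of the other genes of the type I list, and the shares below are means over 20 draws of the thinning. Cells of 1 brain are not replicates, so no test is given, and the split is a range and not a type: the whole list's score ran from 2 to 57 UMIs in metastasis 1 and from 0 to 50 in metastasis 2. A UMI of Cxcl10 was found in 42.1% against 14.1% in metastasis 1 and 41.5% against 16.3% in metastasis 2, upper against lower part. Its difference ran from 15 to 36 and from 14.9 to 33.7 percentage points over the draws. Each draw thinned the same cells, so here and below the range over draws shows the spread of the thinning alone. It does not show how certain a difference is. Isg15 was found in 78.1% against 47.2% in metastasis 1 and 77.3% against 42.9% in metastasis 2. For Ifit3, an antiviral protein of the Ifit1 complex, the values were 29.5% against 8.51% in metastasis 1 and 31.9% against 5.26% in metastasis 2. Each of these genes was more often seen in the upper part in every draw.

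Cxcl10 and Ms4a4c are not on the type I list, and Ms4a4c was found in 81% against 53.9% in metastasis 1 and 82.2% against 53.7% in metastasis 2. Genes on the list also differed less in some cases, as Slfn5, with a mean difference of 8.55 percentage points in metastasis 1. Il1rn, which encodes the antagonist of the interleukin 1 receptor, was found in 31.1% against 20% in metastasis 1 and 22.8% against 13.3% in metastasis 2. Ccl2, the ligand of Ccr2, was found in 38% against 26.8% in metastasis 1 and 34.6% against 19.4% in metastasis 2, and its difference was above 0 in all draws of both brains. Ccl5, an attractant of T cells, was found in 26.1% against 26.6% in metastasis 1 and 34.2% against 27.8% in metastasis 2, with draws on both sides of 0. The monocyte gene Ly6c2 differed between the brains: its difference ran from -4.39 to 11.1 percentage points in metastasis 1 and from 25 to 41.8 in metastasis 2. Chil3, Ccr2, Il1b and C1qb had draws on both sides of 0 in each brain.

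**Figure D3:**
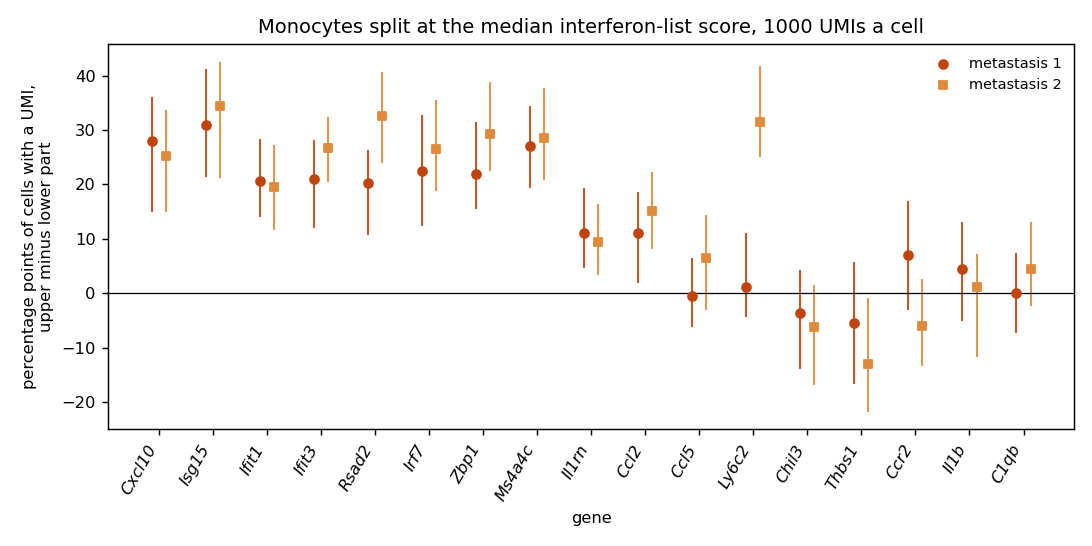
Difference, in percentage points, of the share of monocytes with a UMI of each gene between cells above the median interferon-list score and the rest, at 1000 UMIs per cell. Points are means and lines the range over 20 draws of the thinning, circles metastasis 1 and squares metastasis 2; Cxcl10, Isg15, Ifit1, Ifit3, Rsad2, Irf7, Zbp1 and Ms4a4c lie above 0 over the whole range in both brains.

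Chemokines of the monocytes stood on both sides of the macrophage level. Of 18 chemokine genes measured, 13 passed the filter, 6 were higher in the monocytes in both brains (30.8% of all genes compared), 4 lower (38.6%) and 3 differed in direction, with a median log2 ratio of 0.06. Cxcl2, an attractant of neutrophils, was at 1504 and 1309 CPM in the monocytes and 930 and 892 CPM in the macrophages. Ccl6 and Ccl9, CC chemokines of rodent myeloid cells, were at 1031 and 974 CPM and at 998 and 883 CPM in the monocytes, with log2 ratios of 0.79 and 0.58 and of 0.43 and 0.43. These were on the monocyte side in both brains. Ccl2 was at 769 and 618 CPM in the monocytes and 602 and 478 CPM in the macrophages. Ccl5 and Ccl4, CC chemokines that attract T cells and monocytes, were at 894 and 1194 CPM and at 993 and 757 CPM in the monocytes, with ratios near 0 or of both signs, 0.28 and 0.03 and -0.07 and 0.19. Lower in the monocytes were Ccl7 and Ccl12, other ligands of Ccr2, with log2 ratios of -0.99 and -1.03 and -0.67 and -0.64, and Cxcl16, the membrane-bound ligand of Cxcr6, at 192 and 214 CPM in the monocytes and 395 and 529 CPM in the macrophages. A single cell held 26.4% and 19.5% of the monocytes' Ccl7 UMIs.

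Of 10 chemokine receptors, 6 passed the filter. Besides Ccr2, Ccr1, a receptor for several inflammatory CC chemokines, was higher in the monocytes, at 131 and 159.8 CPM in the monocytes and 85.4 and 87.1 CPM in the macrophages. Cx3cr1, the fractalkine receptor of microglia and patrolling monocytes, was lower, at 128 and 72.4 CPM in the monocytes and 287 and 137 CPM in the macrophages. Cxcr4, a receptor that retains cells in the marrow, was at 68 and 72.4 CPM in the monocytes and 64.8 and 74.8 CPM in the macrophages, without separating the groups.

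Inflammatory cytokine genes differed in direction, with Il1b on the monocyte side. Of 20 genes on the list of inflammatory cytokines and NF-kB, 15 passed, 9 were higher in the monocytes in both brains (30.8% of all genes compared) and 4 lower (38.6%), with a median log2 ratio of 0.29. Il1b, which encodes interleukin 1 beta, was at 1701 and 1556 CPM in the monocytes and 924 and 907 CPM in the macrophages, and a UMI of it was found in 63.2% and 67.4% of monocytes against 45.5% and 51.6% of macrophages at 1000 UMIs. Casp1, the enzyme that cleaves its precursor, was at 89.5 and 57.3 CPM in the monocytes and 35.8 and 38.6 CPM in the macrophages, and Il18, the other cytokine it cleaves, at 99.5 and 60.3 CPM in the monocytes and 35.8 and 36.8 CPM in the macrophages. Nfkbia, the inhibitor of NF-kB and itself a target of it, was at 1884 and 1345 CPM in the monocytes and 1415 and 1189 CPM in the macrophages. Tnf, tumour necrosis factor, was at 76.3 and 45.2 CPM in the monocytes and 82.7 and 53.8 CPM in the macrophages, with ratios of -0.10 and -0.21. The Il1b and Casp1 levels of both brains lay above both macrophage levels, and those of Tnf overlapped.

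RNA of genes for antigen presentation through MHC class II was lower in the monocytes. The 9 genes summed to 14793 ± 1851 CPM (SD, n = 2 brains; 16102 and 13484 CPM) in the monocytes and to 24644 ± 2677 CPM (22751 and 26537 CPM) in the macrophages. All 7 genes that passed were lower in both brains, against 38.6% of all genes compared, with a median log2 ratio of -0.70. Cd74, the invariant chain, was at 7703 and 6088 CPM in the monocytes and 10373 and 11957 CPM in the macrophages. H2-Ab1 was at 2595 and 2065 CPM in the monocytes and 3925 and 4406 CPM in the macrophages, and a UMI of it was found in 47.4% and 39.9% of monocytes against 73.6% and 74.9% of macrophages. H2-DMa, a peptide exchange chain, differed little, with ratios of -0.13 and -0.31. With Apoe taken out of the rule, the monocyte sum was 16686 and 17173 CPM. MHC class I genes were closer: 3 of the 16 that passed were higher in both brains (30.8% of all genes compared) and 9 lower (38.6%), and the shared light chain B2m was at 4806 and 4842 CPM in the monocytes and 5157 and 5700.3 CPM in the macrophages.

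Immune checkpoint and suppressive genes were higher or lower about as often as all genes compared. Of 20 genes, 9 passed, 3 were higher in the monocytes in both brains (30.8% of all genes compared), 4 lower (38.6%) and 2 differed in direction, with a median log2 ratio of -0.13. Cd274, the checkpoint ligand PD-L1, was at 86.2 and 51.3 CPM in the monocytes and 78.5 and 69.5 CPM in the macrophages (52 and 17 UMIs in the monocytes). Vsir, the checkpoint ligand VISTA, was at 156 and 103 CPM in the monocytes and 168 and 147 CPM in the macrophages, with log2 ratios of -0.10 and -0.48. Monocytes and macrophages overlapped in both. Il1rn was at 352 and 298 CPM in the monocytes and 265 and 189 CPM in the macrophages, and both its values lay above the macrophages. Tgfb1, a suppressive growth factor, was at 343 and 289 CPM in the monocytes and 324 and 285 CPM in the macrophages. Arg1, the arginine-consuming enzyme arginase of suppressive myeloid cells, was at 16.6 and 0 CPM in the monocytes (10 and 0 UMIs), and Ido1, which consumes tryptophan, at 0 UMIs.

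Genes of mature macrophages, of the lysosome and of lipid handling were lower in the monocytes. The 15 lowest ratios by the naming rule held Pf4, Acp5, Clec4b1, Trem2, Cd81, Syngr1, Lgmn, Triap1, Slamf9, Ctsk, Pltp, Ntpcr, Ube2m, Cxcl16 and Ccl7, and 0.525% of all genes compared were lower by 1 log2 unit or more in both brains. Pf4, platelet factor 4, which border macrophages also express, was at 13.3 and 9.05 CPM in the monocytes and 73 and 151 CPM in the macrophages, a level of 8 and 3 UMIs in the monocytes. Trem2, the lipid receptor of microglia and tumour macrophages, was at 99.5 and 72.4 CPM in the monocytes and 255 and 230.3 CPM in the macrophages. Acp5, a lysosomal phosphatase, was at 59.7 and 57.3 CPM in the monocytes and 186 and 233 CPM in the macrophages. All of them lay below both macrophage values in both brains. Lgmn, the lysosomal protease legumain, was at 695 and 781 CPM in the monocytes and 1514 and 1883 CPM in the macrophages, and Pltp, a phospholipid transfer protein, at 24.9 and 48.2 CPM in the monocytes and 63.4 and 161 CPM in the macrophages.

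The cathepsin and lysosome list summed to 16966 and 15760 CPM in the monocytes and 23312 and 22998 CPM in the macrophages, and 16 of its 19 genes were lower in both brains (38.6% of all genes compared). Ctsb, the protease cathepsin B, was at 2058 and 1848 CPM in the monocytes and 3392 and 3363 CPM in the macrophages, and Ctsd, cathepsin D, at 456 and 455 CPM in the monocytes and 1088 and 787 CPM in the macrophages. The 3 genes higher in both brains were Ctsc, which activates granule proteases, with log2 ratios of 0.47 and 0.04, Cstb, a cathepsin inhibitor, with 0.03 and 0.16, and Lamp2, a lysosomal membrane protein, with 0.14 and 0.52. In the lipid list 9 of the 11 genes that passed were lower in both brains, against the same share. Spp1, the secreted protein osteopontin, was at 290.2 and 476 CPM in the monocytes and 544 and 898 CPM in the macrophages, and Fabp5, a fatty acid carrier, at 249 and 205 CPM in the monocytes and 526 and 335 CPM in the macrophages. Npc2, a lysosomal sterol carrier, was higher in both brains by ratios near 0, 0.12 and 0.01. In the tissue macrophage list all 7 genes that passed were lower in both brains, again against 38.6% of all genes compared, among them Cd63, a lysosomal tetraspanin, with ratios of -1.19 and -0.96.

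**Figure D4:**
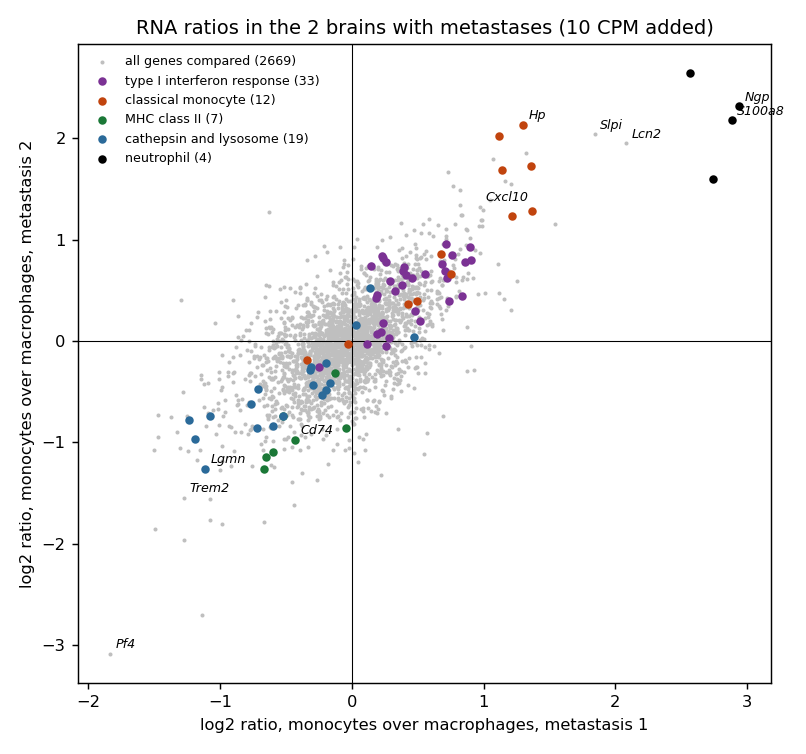
Log2 ratio of monocytes over macrophages in metastasis 1 (x axis) and metastasis 2 (y axis) for 2669 genes compared, 10 CPM added, with genes of 5 lists in colour. Classical monocyte and interferon genes lie mostly in the upper right, MHC class II and lysosome genes mostly in the lower left, and 4 neutrophil genes lie at the far upper right, of which Camp and Ngp lose their ratio in both brains without the cells rich in neutrophil RNA.

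Genes of adhesion, clotting and matrix included several on the monocyte side. Of 15 adhesion and trafficking genes 9 passed and 6 were higher in both brains (30.8% of all genes compared). Cd44, the hyaluronan receptor, was at 494 and 359 CPM in the monocytes and 276 and 186 CPM in the macrophages. Itga4, the integrin chain of VLA-4 that monocytes use to cross endothelium, was at 77.9 and 93.5 CPM in the monocytes and 52.4 and 49.1 CPM in the macrophages. Selplg, the selectin ligand PSGL-1, was lower, with log2 ratios of -0.33 and -0.42. Among clotting and matrix genes outside the rule, F10, which encodes coagulation factor X, was at 302 and 277 CPM in the monocytes and 161 and 139.7 CPM in the macrophages, and Plaur, the urokinase receptor, at 459 and 440.2 CPM in the monocytes and 316 and 269 CPM in the macrophages. Timp2, an inhibitor of matrix proteases, was lower, at 149 and 172 CPM in the monocytes and 316 and 333 CPM in the macrophages. In the pattern and Fc receptor list 8 of 19 genes were higher in both brains and 6 lower, near the 30.8% and 38.6% of all genes compared; Clec4e, the receptor Mincle for mycobacterial glycolipid and dead cells, was at 624 and 569.9 CPM in the monocytes and 362 and 192 CPM in the macrophages, and its partner Clec4d at 274 and 314 CPM in the monocytes and 161 and 92.3 CPM in the macrophages.

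Metabolic and cell cycle genes stood close to the macrophage level as lists. The glycolysis and hypoxia list summed to 5116 and 5276 CPM in the monocytes and 5234 and 5609.7 CPM in the macrophages, and Pkm, pyruvate kinase, was at 1028 and 1125 CPM in the monocytes and 874 and 895 CPM in the macrophages. Hif1a, the hypoxia-inducible factor, was at 197 and 157 CPM in the monocytes and 158 and 89.4 CPM in the macrophages. Among cell cycle genes 6 of 18 passed, 5 were lower in both brains (38.6% of all genes compared), and a UMI of Mki67, a marker of dividing cells, was found in 0.439% and 0% of monocytes at 1000 UMIs (the 0 of 138 cells allows a share of up to 2.17%).

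Immediate early genes, which enzymatic digestion induces, were present in both groups. The list summed to 6444 and 5460.4 CPM in the monocytes and 6575 and 5859.8 CPM in the macrophages, and Fos was at 1448 and 1245 CPM in the monocytes and 1321 and 1365 CPM in the macrophages, so that the groups overlapped. Among growth factor receptors and lineage factors, Cebpb, a transcription factor of myeloid differentiation, was at 3517 and 3657 CPM in the monocytes and 2326 and 2327 CPM in the macrophages, and Spi1, the myeloid factor PU.1, at 565 and 485 CPM in the monocytes and 466 and 452 CPM in the macrophages.

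Within the monocytes, macrophage genes outside the rule followed the marker share only in part. Cells of each brain were ordered by the share of monocyte UMIs among the 10 monocyte and macrophage markers and cut into 4 parts of 61 to 82 cells. From the lowest to the highest share, Lgmn was at 899, 754, 558 and 364 CPM in metastasis 1 and 1207, 649.8, 536 and 556 CPM in metastasis 2. Trem2 was at 133, 131, 63.6 and 30.4 CPM in metastasis 1 and 105, 57, 87.2 and 16.9 CPM in metastasis 2. The lowest share had the highest level of both in each brain, and the steps between were not all in order. The cathepsin and lysosome list summed to 18385, 18143, 15593 and 14094 CPM in metastasis 1 and 19472, 14582, 13611 and 13876 CPM in metastasis 2. The MHC class II list summed to 18389.6, 19002, 12186 and 12364 CPM in metastasis 1 and 17911, 8528, 12115 and 14870.3 CPM in metastasis 2, and Ccr2 was at 647, 754, 622 and 617 CPM in metastasis 1 and 441, 604, 636 and 556 CPM in metastasis 2, with no common order in the 2 brains. The NK cell list summed to 147, 347, 318 and 455 CPM in metastasis 1 and 95.8, 502, 162 and 674 CPM in metastasis 2. It was lowest in the lowest share and highest in the highest share of each brain. Median depth moved with the share, from 1972 to 996 UMIs per cell in metastasis 1 and from 1405 to 783 in metastasis 2, and its part in these levels was not tested.

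The surface tags are a readout that the rule did not use, and the name of the deposited cluster column is that of an RNA neighbour graph. In mean log2(tags per cell + 1), CD11b, the integrin chain of myeloid cells, was at 7.09 and 6.84 in the monocytes, 7.22 and 7.43 in the macrophages and 1.78 and 1.78 in cluster 0. CD45, the pan-leukocyte phosphatase, was at 6.75 and 6.55, 6.88 and 6.92 and 1.32 and 1.33. Every monocyte held tags of both antibodies, and the means lay far above cluster 0. CD86, a costimulatory ligand of T cells, was at 2.57 and 2.38 in the monocytes and 3.08 and 3.23 in the macrophages, a mean difference of -0.68 ± 0.24 (SD, n = 2 brains), and medians were 5 and 4 against 7.5 and 8 tags per cell. No value of the monocytes reached those of the macrophages. The exact two-sided permutation test over brains (n = 2 against 2) gave p = 0.333 for each of the 6 tags, adjusted p = 0.333. That is the smallest value this test allows, so no difference could pass 0.05. The test treated the groups as independent, although both came from the same 2 brains, and the pairing was not used.

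All 6 tags had lower means in the monocytes in both brains, and so did the hashing tag, at 8.41 and 8.64 against 8.71 and 9.37, and the RNA depth. As log2(tags per 1000 tags of the cell + 1), which removes the total, the difference of CD86 was -0.56 and -0.66, that of CD11b 0.01 and -0.07 and that of CD45 0.02 and 0.16. CD86 therefore stayed lower on both scales, while CD45 changed direction and CD11b did so in metastasis 1. The RNA did not follow: Cd86 was at 159 and 99.5 CPM in the monocytes and 128 and 88.8 CPM in the macrophages. CD3e and CD25 were at 0.22 and 0.25 and 0.59 and 0.60, against 0.19 and 0.18 and 0.38 and 0.39 of cluster 0, and their genes Cd3e and Il2ra had 2 and 0 and 0 and 0 UMIs in the monocytes. CD4 was at 0.87 and 0.84 in the monocytes and 0.65 and 0.69 in cluster 0.

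**Figure D5:**
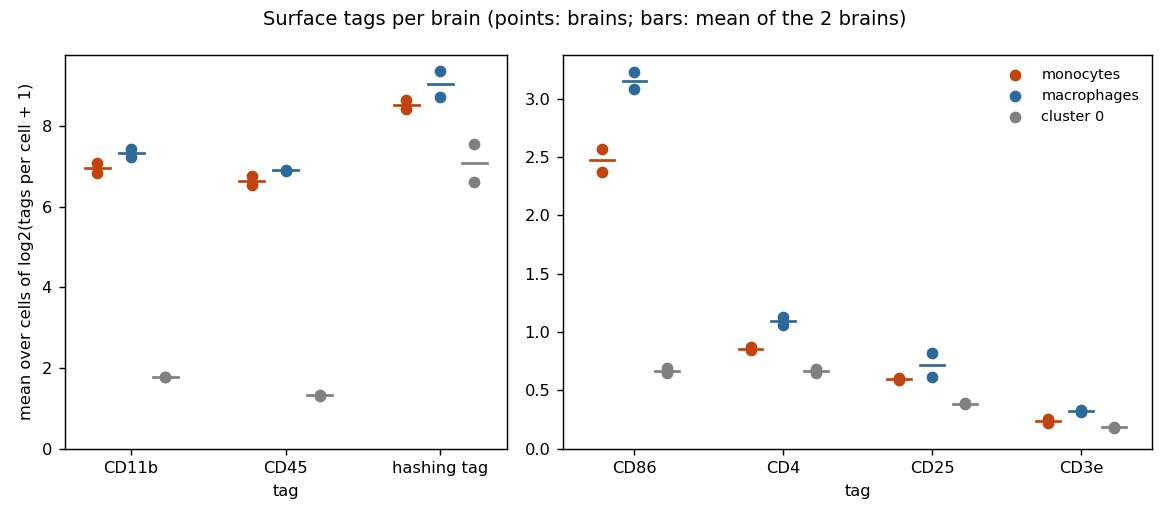
Mean log2(tags per cell + 1) of the surface tags and of each brain's own hashing tag, for monocytes (red), macrophages (blue) and cluster 0 (grey); each point is 1 of the 2 brains with metastases and each bar their mean. CD11b and CD45 lie far above cluster 0 in monocytes and macrophages, and CD86 is higher in the macrophages than in the monocytes in both brains.

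Between the brains, the monocytes differed in few genes, and with 1 brain on each side there is no replicate check. Over 2840 genes at 50 CPM or more in either brain, 0.845% were higher by 1 log2 unit or more in metastasis 1 and 0.81% in metastasis 2. The 5 genes highest in metastasis 1 were Ngp, Ltf, S100a9, Camp and S100a8, with log2 differences of 3.02, 2.73, 2.70, 2.48 and 2.35. All of them belong to the neutrophil list summed above, of which 2 cells held 78.1% of the UMIs in metastasis 1. Without the monocytes that held 10 or more such UMIs (6 and 2 cells), the list summed to 136 and 261 CPM. S100a8 was then at 29.7 and 125 CPM and Ngp at 0 and 6.08 CPM, and S100a9 was also lower in metastasis 1. Camp was at 1.75 and 0 CPM, and Ltf at 0 CPM in both brains. The differences of these 5 genes thus rested on those few cells. The genes highest in metastasis 2 were Ly6d, Dnajc11, Saa3, Cd33 and Lrg1. Saa3, an acute-phase protein of macrophages, was at 43.1 and 178 CPM from 26 and 59 UMIs, and Lrg1, a secreted glycoprotein of inflammation, at 21.6 and 75.4 CPM from 13 and 25 UMIs. Ly6d, a lymphoid antigen, rested on 2 and 22 UMIs, of which 1 cell held 40.9% in metastasis 2. The interferon list differed by less: its sums were 16058 and 16595 CPM.

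In the naive brains, 2 of 10 and 3 of 5 cells of cluster 2 met the RNA conditions, 0.35% (95% exact binomial interval 0.0424 to 1.26) and 0.952% (0.197 to 2.76) of all cells, against 6.1% (5.47 to 6.78) and 4% (3.53 to 4.52) with metastases. The rule named the brains with metastases, and the shares are of cells left after Percoll enrichment, so they are given as a description. Those 5 cells held 2163 and 3056 UMIs, and the type I interferon list was at 8784 and 8181 CPM from 19 and 25 UMIs. Cxcl10 had 0 UMIs, which at 3 counts allows up to 1387 and 982 CPM, above the level with metastases, so a difference in Cxcl10 was not detectable at this depth.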

How the data were processed

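Per the labels' protocols, RNA was captured with the 10x Chromium 3-prime assay, and the submitters' processing notes name mm10, Cell Ranger 3.0.2 and Seurat 3.0.1, with no settings. The authors deposited UMI counts for each gene in each cell and tag counts for each antibody, both raw as their whole-number values show, and a per-cell table with the cluster, the brain and the percent of mitochondrial UMIs computed by the authors. All 12421 cells carried a single hashing call and held at least 500 UMIs, no further filter or doublet caller was applied, and no barcode occurred more than once. Free RNA was not corrected.

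UMI counts were summed per brain and group and scaled to CPM; ratios had 10 CPM added. For shares, cells were thinned to 1000 UMIs. Tags were tested with an exact permutation test over brains, without pairing the groups by brain. The ratio step was tested on simulated data (2508 genes): at 1 log2 unit in both brains it called 50 of 50 genes raised 4-fold, 45 of 50 set to 0.25-fold, 0 of 50 raised 2-fold, 21 of 50 set to 0.5-fold and 0 of 2315 unchanged. The unchanged genes had a median log2 ratio of -0.18. The simulation drew Poisson counts from the summed macrophages of each brain, with no spread between cells. Its 0 calls therefore do not extend to genes whose UMIs lie in few cells. Python 3.11.15, numpy 2.4.6, scipy 1.17.1, pandas 2.3.3 and matplotlib 3.10.9 were used. Genes were named as the rule's 14 genes, 2 to 6 of the highest genes of the 35 lists at 50 CPM in both brains, the 15 highest and 15 lowest ratios over macrophages, the 5 highest in each brain, the genes of the 6 antigens, and Cxcl10, Ccr2, Cd274, Vsir, Arg1 and Il1b; other list members were picked after their values were seen. Some genes that the rule names are not reported here. The members and the lists were chosen with earlier results of these data known. Alternatives were the T cell limit, the margin of the rule, Apoe in the rule, keratin-bearing cells, each brain left out, cell means, thinning, tag scale, added CPM and level filter.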

Additional observations from a re-analysis of the deposited data

How the results depend on the processing

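Of the 132 recomputed values, 101 were counted as kept, 24 moved and 7 reversed. Kept meant levels within 1 SD between brains, counts within 1.5 times and neutrophil gene ratios within 1 log2 unit. Tag differences were judged by direction alone, since no tag could pass the threshold. With 1 of 2 brains left out, a level stays within 1 SD, and a tag difference of the same sign in both brains cannot reverse. Those kept values were therefore fixed in advance. With 1 brain left out, cells were set against the total of both brains, so their count could only fall. Genes past 1 log2 unit were set against those called in both brains, so their count could not fall. The moved values among these are no check either, and the tally holds them all. The causes were not tested where none is stated. Tag differences kept in direction could still shrink, CD11b from -0.36 to -0.03 as tags per 1000 tags and to -0.08 with Apoe out of the rule, and CD45 from -0.25 to -0.05 with the margin of 5. With a monocyte sum 5 or more above the macrophage sum, 354 cells were chosen in place of 574, Cxcl10 was at 743 CPM in place of 661 (mean of brains), the interferon list at 17053 CPM in place of 16327, and 93 genes differed between brains in place of 47. With Apoe out of the rule, 835 cells were chosen, Cxcl10 was at 577, the interferon list at 15896 and the MHC class II list at 16929 CPM (main 14793), 5 genes were lower than in macrophages by 1 log2 unit in place of 14, 31 differed between brains, and the CD45 difference was 0.0233. Without keratin-bearing cells the interferon list was at 16751 CPM, and thinned to 1000 UMIs at 16777 CPM. As a mean over cells, the MHC class II list was at 12639 CPM. With 1 CPM added 23 genes were lower, and with no minimum level 24; at a minimum of 200 CPM, 8 genes differed between brains, as fewer genes entered. As tags per 1000 tags, the differences of CD25, CD3e and CD45 reversed to 0.013, 0.0077 and 0.088. Without cells rich in neutrophil RNA (chosen after seeing the data), Camp in metastasis 2 reversed to -0.16, Ngp in metastasis 1 to -0.19 and S100a9 in metastasis 1 to -0.36.

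Leaving out 1 brain at a time gave 247 to 327 cells, Cxcl10 at 618 to 703 CPM, the interferon list at 16058 to 16595 CPM, the MHC class II list at 13484 to 16102 CPM, 24 to 49 genes higher and 39 to 46 lower than in macrophages by 1 log2 unit in the brain left (18 and 14 in both brains), and differences of -0.85 to -0.51 for CD86, -0.59 to -0.13 for CD11b, -0.37 to -0.13 for CD45, -0.28 to -0.19 for CD4, -0.22 to -0.02 for CD25 and -0.12 to -0.06 for CD3e. With about 1000 UMIs a cell and 2 brains, single genes under 50 CPM, per-cell shares of sparse genes and any test over brains are limited by depth and number.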
